A study of Homo sapiens with 4 samples.

Results

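The 7 genes described here encode the core of the human small RNA processing machinery: DROSHA, DGCR8, XPO5, DICER1, TARBP2, PRKRA and AGO2. They were chosen by gene symbol out of 27575 genes named in 2 count tables of stranded genomic regions, and DGCR8 was put forward for its fall in total RNA, so that fall is described below and supports nothing. The RNA came from NCI-H1944, a lung adenocarcinoma line of wild-type genotype. Cells received the MPS1 inhibitor BAY-1217389 at 100 nM (MPS1i) or DMSO for 48 h and were grown for 24 h after washout. MPS1 is the spindle checkpoint kinase encoded by TTK. Total RNA (Input) came from 10% of each lysate, and the J2 antibody, which binds double-stranded RNA, was applied to the remainder. The 4 groups, MPS1i J2, DMSO J2, MPS1i Input and DMSO Input, held 1 library each. Differences below are thus between single libraries, with no replicate to check them. As these are bulk samples, fewer cells of a kind and less RNA per cell cannot be told apart.

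MicroRNAs are cut from hairpins in longer transcripts. In the nucleus the Microprocessor, made of the RNase III enzyme DROSHA and its RNA-binding cofactor DGCR8, crops the hairpin out of the primary transcript. The carrier XPO5 exports it to the cytoplasm, where DICER1, with the double-stranded RNA-binding partners TARBP2 and PRKRA, trims it to a short duplex. One strand is then loaded into AGO2, the Argonaute protein that can slice a matched target. The transcript of DGCR8 itself holds hairpins that the Microprocessor cuts in human and mouse cells, a loop by which the complex lowers its own cofactor. PRKRA and TARBP2 also act on the kinase PKR, a cytoplasmic sensor of double-stranded RNA, PRKRA as an activator and TARBP2 as an inhibitor.

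With region starts read as listed, regions that share a base with an annotated exon were 0.248% of the J2 regions and 0.314% of the Input regions. They held 15.4% of counts in MPS1i J2 and 12.4% in DMSO J2, and 33.4% in MPS1i Input and 34.3% in DMSO Input, so a gene's value can mix reads of regions that touch exons with reads of regions that do not. If starts count from 0, some of these regions adjoin an exon without sharing a base, and the shares were not computed that way. Summed counts were 6697479 in MPS1i J2 and 9793355 in DMSO J2, and 4844956 in MPS1i Input and 6381610 in DMSO Input. Levels are in CPM, counts scaled to these sums. Mitochondrial regions took 0.836% of MPS1i J2 and 0.608% of DMSO J2, and 20.2% of MPS1i Input and 24.3% of DMSO Input. At equal depth the MPS1i Input library had reads in 484849 regions, against 826639 in DMSO Input. In J2 the order was the other way, with 998374 regions in MPS1i and 881730 in DMSO. The part of these spreads in the results below was not tested. Of 10 lung epithelial markers, KRT7, KRT8, KRT18, CDH1, EPCAM and MUC1 had reads in every library, while KRT19, NKX2-1 and SFTPB were at 0. NAPSA had at most 4 counts in a library and 0 in MPS1i J2. The 5 leukocyte markers summed to at most 2.48 CPM, the 4 fibroblast markers to at most 1.05 CPM, and the 3 endothelial markers to between 3.76 and 10.0 CPM.

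The tables give each region a gene name, set by HOMER, which need not be that of the gene whose interval holds it. In DGCR8 and DICER1 some of the other names are microRNAs. MIR3618 (chromosome 22, 20085746-20085833) and MIR1306 (20086058-20086142) lie within DGCR8 on its own strand, and MIR3173 (chromosome 14, 95137919-95137986) lies within DICER1 on its own strand, in GENCODE 29 on GRCh38. Their mature sequences are printed because reads of DGCR8 and DICER1 stand in the tables under these 3 names. They are RefSeq's, on GRCh38.p14, 5′ to 3′, with the seed (bases 2 to 8) in capitals.
hsa-miR-3618: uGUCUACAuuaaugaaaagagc
hsa-miR-1306-5p: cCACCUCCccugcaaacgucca
hsa-miR-1306-3p: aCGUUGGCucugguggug
hsa-miR-3173-5p: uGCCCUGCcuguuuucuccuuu
hsa-miR-3173-3p: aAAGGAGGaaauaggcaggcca
No seed is shared by any pair of the 5. The libraries do not report these mature RNAs, since the counted regions are stretches of the host transcript.

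Every gene is therefore given by both assignments: the sum over regions that carry its name (the name label, Intergenic class left out) and the sum over regions that overlap its GENCODE 29 interval, both on the gene's strand. A value was called higher or lower when the counts of the 2 libraries reached 50, the CPM ratio was at least 2-fold, and its exact Clopper-Pearson 95% interval excluded 1. All intervals cover counting error only. In Input, 0 of the 7 genes were called by name label, where the same rule called 18.5% of all measured genes lower and 10.6% higher. By gene interval 2 of the 7, DGCR8 and AGO2, were lower in MPS1i Input, where the rule called 16.4% of all measured genes lower. In the J2 libraries 2 of the 7 were called lower by each assignment, AGO2 and XPO5 by name label and AGO2 and DGCR8 by interval. The background was 22.7% lower by label and 20.1% by interval, and 0 of the 7 were called higher, where 13.0% of genes were by label. TARBP2 stayed under 50 counts in all of these comparisons.

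**Figure D1:**
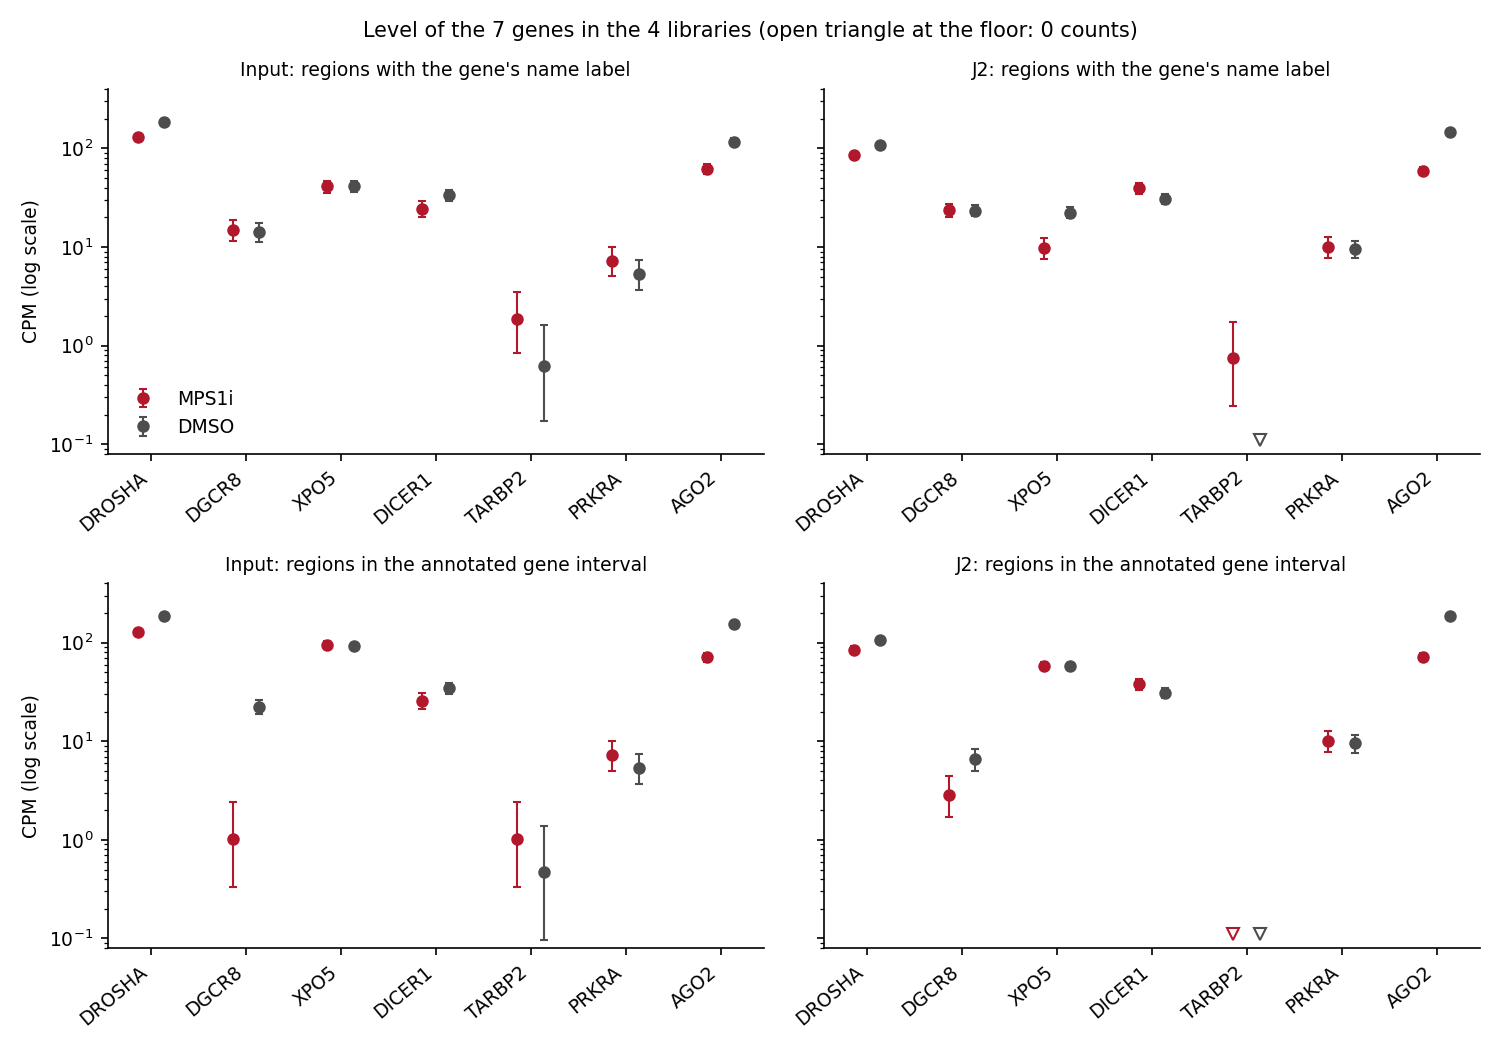
Level of each gene in CPM (log scale) in the 4 libraries, MPS1i in red and DMSO in grey, by name label (top) and by gene interval (bottom), with exact Poisson 95% intervals. By interval, DGCR8 in Input stands at 1.03 CPM in MPS1i and 22.4 CPM in DMSO, while by label it stands at 14.9 CPM in MPS1i and 14.1 CPM in DMSO.

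Per kilobase of gene length, by gene interval, XPO5 led in MPS1i Input with 1.76 CPM per kb, ahead of DROSHA with 0.975 and AGO2 with 0.617. PRKRA and DICER1 followed at 0.359 CPM per kb each, then TARBP2 at 0.187, and DGCR8 was last at 0.0326. The counting intervals of PRKRA, DICER1 and TARBP2 overlapped in that library. In DMSO Input the order of CPM per kb was XPO5 (1.71), DROSHA (1.42), AGO2 (1.33), DGCR8 (0.708), DICER1 (0.480), PRKRA (0.265) and TARBP2 (0.0853). There the neighbours DROSHA and AGO2 overlapped, as did PRKRA and TARBP2. DGCR8 thus stood above DICER1, PRKRA and TARBP2 in DMSO Input and below DICER1 and PRKRA in MPS1i Input. There DGCR8 and TARBP2 had 5 counts each, and their counting intervals per kb overlapped. In MPS1i J2 the CPM per kb was 1.08 for XPO5, 0.641 for DROSHA, 0.618 for AGO2, 0.524 for DICER1 and 0.498 for PRKRA, and 0.0896 for DGCR8. In DMSO J2 it was 1.61 for AGO2, 1.08 for XPO5, 0.814 for DROSHA, 0.472 for PRKRA, 0.432 for DICER1 and 0.207 for DGCR8. TARBP2 was at 0 in both. AGO2 thus led in DMSO J2 and overlapped its neighbour DROSHA in MPS1i J2, and the intervals of DICER1 and PRKRA overlapped in both J2 libraries. The lead of XPO5 in Input rests on regions that share a base with an exon, starts as listed. They held 417 of its 457 counts in MPS1i Input and 484 of 586 in DMSO Input. Without them XPO5 had 8.26 CPM in MPS1i Input and 16.0 CPM in DMSO Input. Length is that of the whole gene, while regions covered a part, in XPO5 11868 of 53746 bases in the Input table.

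DROSHA (ENSG00000113360, chromosome 5, 31400497-31532196, minus strand), the nuclease of the Microprocessor, had more counts by gene interval than any other of the 7 in both Input libraries. By name label it had 625 counts (129.0 CPM) in MPS1i Input and 1193 counts (187 CPM) in DMSO Input. The log2 ratio was -0.53 with an interval of -0.68 to -0.39, short of 2-fold. The J2 libraries held 569 counts in MPS1i and 1050 in DMSO, a log2 ratio of -0.34 (-0.49 to -0.19). The interval assignment gave 622 counts in MPS1i Input and 1192 in DMSO Input, and 565 in MPS1i J2 and 1050 in DMSO J2, nearly the same reads. All regions inside DROSHA carry its own name.

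Along the DROSHA gene body the Input difference was uneven. Cut into 4 equal segments from the 5′ end, it held 62, 75, 94 and 391 counts in MPS1i Input, against 225, 204, 205 and 558 in DMSO Input. The log2 ratios of those segments were -1.45, -1.04, -0.72 and -0.12. The last segment contained a region of 2 listed bases at the edge of exon 31 that alone carried 256 counts in MPS1i Input and 291 in DMSO Input. Reads are longer than such a region, so part of each lies in the exon or the intron beside it. Without this region DROSHA had 366 counts in MPS1i Input and 901 in DMSO Input, a log2 ratio of -0.90 (-1.08 to -0.73). The exon-edge region itself had a log2 ratio of 0.21 (-0.04 to 0.46), which lay 1.11 (0.82 to 1.41) above that of the remaining regions. In the J2 table, with starts as listed, no DROSHA region shared a base with an exon, and the segments held 95, 157, 117 and 196 counts in MPS1i and 76, 298, 322 and 354 in DMSO. The first segment alone was above 0, with a log2 ratio of 0.87 (0.42 to 1.32), and the third was lowest at -0.91.

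DGCR8 (ENSG00000128191, chromosome 22, 20080232-20111877, plus strand), the cofactor that recognises the hairpin, gave different values by the 2 assignments. By name label it had 72 counts in MPS1i Input and 90 in DMSO Input, a log2 ratio of 0.08 (-0.39 to 0.54). By gene interval it had 5 counts (1.03 CPM) in MPS1i Input and 143 counts (22.4 CPM) in DMSO Input. That is a log2 ratio of -4.31 (-6.09 to -3.18), or 19.8-fold lower in MPS1i. Ordered by the upper bound of the interval, DGCR8 ranked 2 among 11396 genes measured by interval, and 7023 among 10719 by label.

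The reads behind both values could be placed. Of the label's Input counts, 61 in MPS1i and 61 in DMSO lay in TANGO2, the neighbouring gene upstream, and only 2 in MPS1i and 24 in DMSO lay inside DGCR8. Within the DGCR8 interval, regions named MIR1306 held 1 count in MPS1i Input and 63 in DMSO Input. Regions named MIR3618 held 2 counts in MPS1i Input and 34 in DMSO Input, and those named MIR6816 held 0 in MPS1i Input and 22 in DMSO Input. All 4 names thus had fewer reads in MPS1i Input inside the gene. TANGO2, over its own interval, had 91 counts in MPS1i Input and 111 in DMSO Input, a log2 ratio of 0.11 (-0.31 to 0.52).

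**Figure D2:**
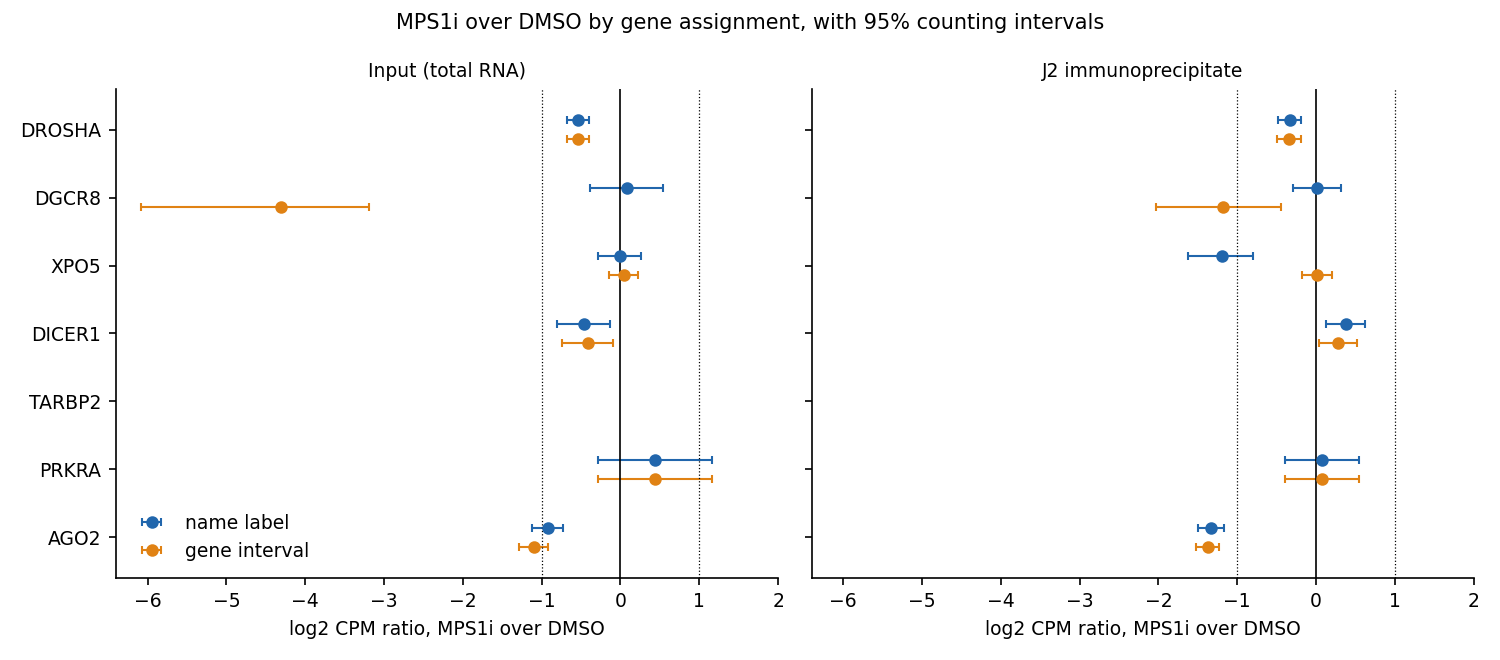
Log2 CPM ratio of MPS1i over DMSO for each gene in Input (left) and J2 (right), by name label (blue) and gene interval (orange), with 95% counting intervals; dotted lines mark 2-fold, and TARBP2 was not measured. The assignments part for DGCR8 in both panels (0.08 and -4.31 in Input) and for XPO5 in J2 (-1.20 and 0.01).

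The low DGCR8 count in MPS1i Input ran through all 4 segments of the gene. The 53 Input regions covered 7993 of its 31646 bases, and 0 of them shared a base with or adjoined an exon. These counts are thus of regions outside annotated exons and do not give the level of spliced DGCR8 RNA. Segments from the 5′ end held 4, 1, 0 and 0 counts in MPS1i Input, against 64, 32, 32 and 15 in DMSO Input. Reads fell in 4 of the 53 regions in MPS1i Input and in 40 of the 53 in DMSO Input. Of all 2310971 Input regions, 484849 had reads in MPS1i and 940751 in DMSO. DROSHA had reads in 72 of its 272 regions in MPS1i Input and 224 in DMSO Input, and AGO2 in 72 of 262 and 210. The splits of DGCR8 by segment, region and name divide the counts behind the fall for which it was picked. They add no support. The most-read region of DGCR8, 387 bases long at 20085250-20085636 and just upstream of MIR3618, had 0 counts in MPS1i Input and 20 in DMSO Input, at least 5.06-fold lower when 0 is set to 3 counts. When each region with a read counted as 1, scaled to the regions with reads in each library, the log2 ratio was -2.21 (-4.31 to -0.90), on under 50 regions. On the opposite strand of the same interval there were 37 counts in MPS1i Input and 41 in DMSO Input, a log2 ratio of 0.25 (-0.43 to 0.93).

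Of J2 reads, the name label gave DGCR8 158 counts in MPS1i and 229 in DMSO, a log2 ratio of 0.01. Most again lay in TANGO2, 119 in MPS1i J2 and 165 in DMSO J2. The interval gave 19 counts in MPS1i J2 and 64 in DMSO J2, a log2 ratio of -1.18 (-2.03 to -0.45). Here the 5′ end stood apart, with 15, 4, 0 and 0 counts by segment in MPS1i J2 and 11, 11, 32 and 10 in DMSO J2. The last 2 segments, with 0 counts in both MPS1i libraries, were read in both DMSO libraries.

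The J2 and Input regions are separate sets, so for every gene J2 over Input compares sums over partly different stretches. In the DGCR8 interval, regions on the gene's strand covered 4987 bases in J2 and 7993 in Input. By interval, DGCR8 was called lower in the DMSO J2 library than in DMSO Input, with 64 counts in J2, 143 in Input and a log2 ratio of -1.77 (-2.23 to -1.34). The rule called 10.6% of all genes measured by interval lower in that comparison. With each region counted as 1 the value was -0.92 (-1.69 to -0.19), without a call. The MPS1i libraries had 19 counts in J2 and 5 in Input, too few for a call. The change of J2 enrichment, which divides J2 over Input in MPS1i by the same ratio in DMSO, was 3.13 on the log2 scale (1.70 to 4.56). It was called higher, as were 8.94% of all genes measured by interval, and it shares its 5 Input counts with the Input comparison. With each region counted as 1 the change was 0.72 (-1.04 to 2.48).

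Genes with ratios most like those of DGCR8 were taken by Euclidean distance in the Input and J2 log2 ratios, among genes with at least 200 counts in each pair of libraries. By interval, out of 5767 genes, they were CDC45, MCM6, CCNB1, ZYG11B and PRC1, at distances of 1.21 to 1.83. CDC45, a helicase component of the replication fork, was nearest and had 6 counts in MPS1i Input and 208 in DMSO Input, and 37 in MPS1i J2 and 280 in DMSO J2. By name label the nearest out of 4825 genes were CHST15, C2CD2, CFAP53, OXNAD1 and SMIM18, all with log2 ratios between 0.01 and 0.07. The 2 assignments shared none of these genes. DGCR8 itself fell short of the minimum of 200 counts in Input by both assignments, and in J2 by interval. The distance uses the Input ratio for which DGCR8 was picked, so the likeness is a description only.

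**Figure D3:**
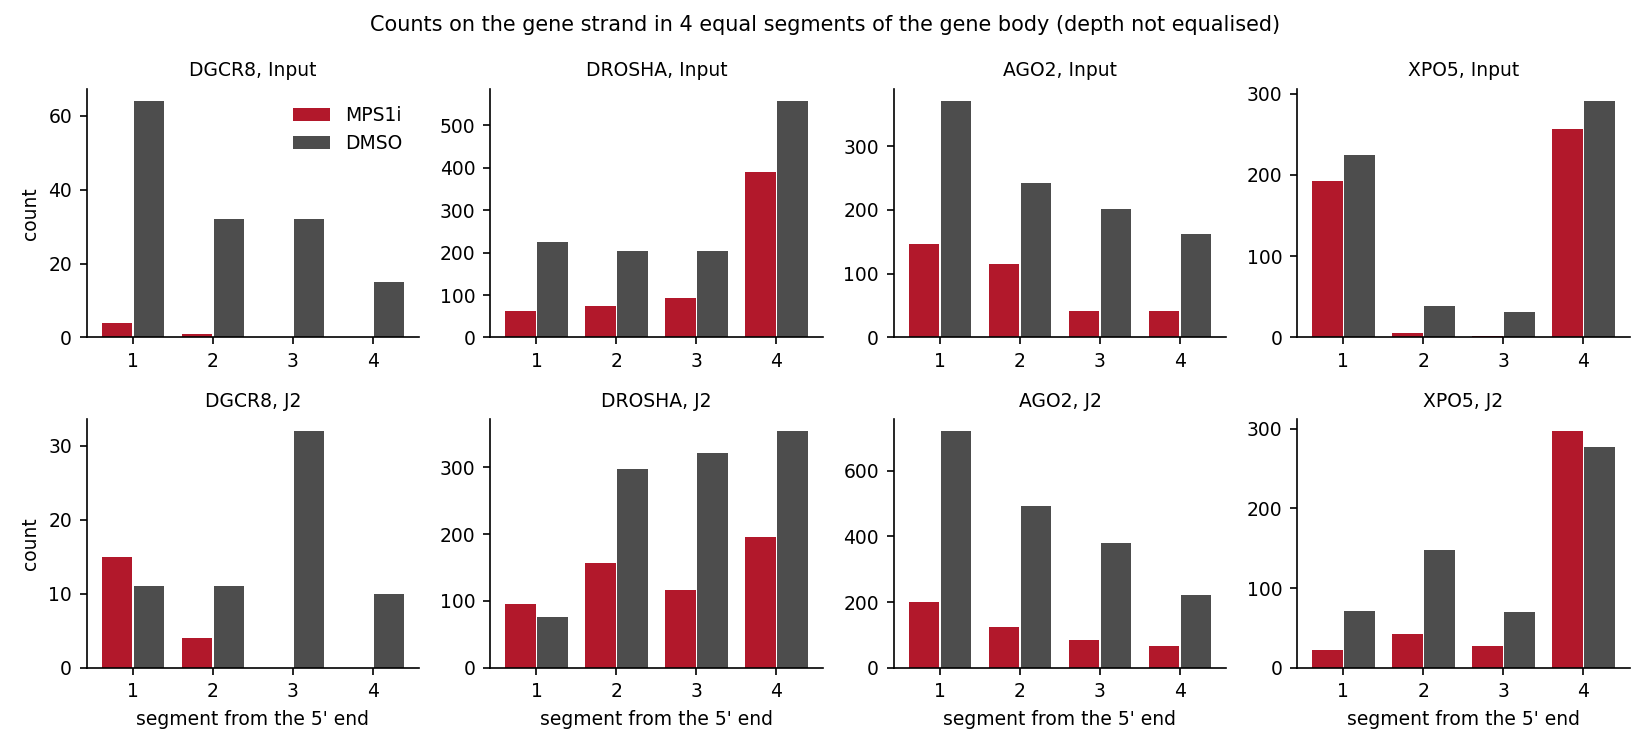
Counts on the gene strand in 4 equal segments of the gene body from the 5′ end, for DGCR8, DROSHA, AGO2 and XPO5, in Input (top) and J2 (bottom), MPS1i in red and DMSO in grey, not scaled for depth. DGCR8 has 4, 1, 0 and 0 counts in MPS1i Input, against 64, 32, 32 and 15 in DMSO Input; in XPO5 the outer segments are near level in Input and the inner ones stand lower in MPS1i.

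XPO5 (ENSG00000124571, chromosome 6, 43522330-43576075, minus strand), the exporter of precursor hairpins, had 199 counts by name label in MPS1i Input and 264 in DMSO Input, a log2 ratio of -0.01. For J2 the label gave 65 counts in MPS1i and 219 in DMSO, a log2 ratio of -1.20 (-1.63 to -0.80), called lower. By interval it had 457 counts in MPS1i Input and 586 in DMSO Input, and 389 in MPS1i J2 and 566 in DMSO J2, with log2 ratios of 0.04 and 0.01. The J2 call of the label thus did not extend to the whole gene. The difference lay in regions on the XPO5 strand named POLR1C, an RNA polymerase subunit gene that overlaps XPO5 on the other strand. They held 324 counts in MPS1i J2 and 347 in DMSO J2.

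In XPO5, 4 regions of the Input table and 3 of the J2 table met the edge of an exon, and they held much of its signal. They share a base with the exon when starts are read as listed. If starts count from 0, all 7 adjoin the exon with no shared base, while the DROSHA region still shares 1. These exon-edge regions had 417 counts in MPS1i Input and 484 in DMSO Input, a log2 ratio of 0.18 (-0.01 to 0.37). The remaining 79 Input regions had 40 counts in MPS1i and 102 in DMSO, a log2 ratio of -0.94 (-1.52 to -0.41). The exon-edge regions had 212 counts in MPS1i J2 and 200 in DMSO J2, a log2 ratio of 0.63. The others had 177 in MPS1i J2 and 366 in DMSO J2, a log2 ratio of -0.50. One of these others also adjoins an exon, and counted with the exon-edge regions it brings them to 288 in MPS1i J2 and 270 in DMSO J2. The exon-edge ratio lay above the other by 1.12 (0.57 to 1.68) in Input and by 1.13 (0.75 to 1.51) in J2. Thus in XPO5, as in DROSHA, reads at exon edges and reads elsewhere in the gene had different ratios between the same libraries.

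The 2 exons at which the strongest exon-edge regions of Input lay are given below, because reads counted there cannot be told apart from reads of spliced RNA. They are exon 31 of DROSHA-201 (chr5:31406853-31406945) and exon 3 of XPO5-201 (chr6:43572506-43572578), GENCODE 29 on GRCh38, minus strand, 5′ to 3′ and wholly coding. The capital is the exon base that the counted region reaches with its start as listed.
DROSHA exon 31: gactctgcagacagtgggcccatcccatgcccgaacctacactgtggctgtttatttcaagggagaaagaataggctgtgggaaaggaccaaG
XPO5 exon 3: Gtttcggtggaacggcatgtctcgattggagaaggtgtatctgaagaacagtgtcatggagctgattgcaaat
The region at the DROSHA base spanned 31406852-31406853. The region at the XPO5 base, 43572578-43572670, ran into the intron and had 167 counts in MPS1i Input and 215 in DMSO Input, a log2 ratio of 0.03 (-0.27 to 0.33). The marked base is the last of the DROSHA exon, which its region shares by either reading of the start. It is the first of the XPO5 exon, and if starts count from 0 the XPO5 region begins at the next base, in the intron, and shares none. The listed length of the XPO5 region, 93 bases, includes the base at its listed start.

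**Figure D4:**
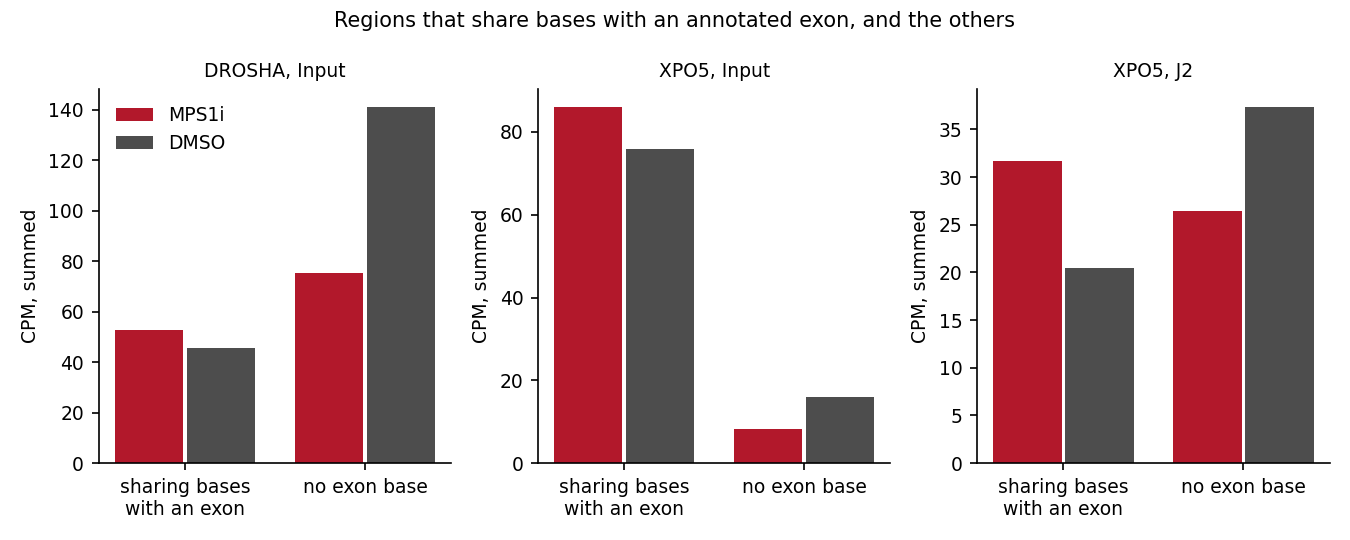
Summed CPM of regions sharing bases with an annotated exon, with region starts read as listed, and of the other regions, for DROSHA in Input and XPO5 in Input and J2, MPS1i in red and DMSO in grey. In each panel the exon-edge bar of MPS1i is the taller of its pair and the other MPS1i bar the shorter, with log2 ratios of 0.21 and -0.90 for DROSHA.

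XPO5 had lower CPM in the J2 libraries than in the Input libraries. Regions in its interval covered 19322 bases in J2 and 11868 in Input, so the sums are not over the same stretches. By name label XPO5 had 65 counts in MPS1i J2 and 199 in MPS1i Input, a log2 ratio of -2.07 (-2.51 to -1.67), called lower as were 9.88% of all measured genes. In DMSO cells it had 219 counts in J2 and 264 in Input, a log2 ratio of -0.89 with no call. The change of enrichment was -1.19 (-1.67 to -0.71), called lower along with 8.88% of genes. No member was called higher in that change by label, against 9.64% of genes. By interval the ratios of J2 over Input were -0.70 in MPS1i and -0.67 in DMSO, and the change was -0.03 (-0.29 to 0.23). Without its exon-edge regions XPO5 was instead higher in J2, with 177 counts in MPS1i J2 and 40 in MPS1i Input (log2 ratio 1.66), and 366 in DMSO J2 and 102 in DMSO Input (log2 ratio 1.22). The rule called 14.9% of all genes higher in MPS1i and 18.5% in DMSO when those regions were left out. By interval 0 of the 7 were called lower in J2 over Input in MPS1i or in the change, where the rule called 9.9% and 7.81% of genes. The opposite strand of XPO5, which belongs to POLR1C, had 812 counts in MPS1i J2 and 1418 in DMSO J2, and 257 in MPS1i Input and 414 in DMSO Input.

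Regions of XPO5 with an Alu had 48 counts in MPS1i J2 and 178 in DMSO J2, a log2 ratio of -1.33 (-1.83 to -0.88). Its regions without a repeat had 330 counts in MPS1i J2 and 358 in DMSO J2, a log2 ratio of 0.43 (0.21 to 0.65). Inverted Alu copies are a common source of double-stranded RNA in human introns. The repeat-free regions include those at exon edges, so the contrast follows the one just described in part.

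DICER1 (ENSG00000100697, chromosome 14, 95086228-95158010, minus strand), the cytoplasmic RNase III enzyme, had summed counts with ratios of opposite sign in the 2 fractions, each under 2-fold and without a call. By name label it had 117 counts in MPS1i Input and 213 in DMSO Input, a log2 ratio of -0.46 (-0.80 to -0.13). The J2 fraction had 264 counts in MPS1i and 298 in DMSO, a log2 ratio of 0.37 (0.13 to 0.62). The change of J2 enrichment was 0.84 (0.43 to 1.24), without a call, and 0.69 (0.30 to 1.09) by interval. In regions matched between J2 and Input, overlapping by at least 90% both ways, the change had the opposite sign, with the value given in the last section. With each region counted as 1 the J2 ratio turned to -0.49 (-1.06 to 0.06) by label and -0.68 (-1.31 to -0.07) by interval. The Input ratio was then -0.83 by label and -0.74 by interval, so both fractions were below 0, and the change by interval was 0.07 (-0.81 to 0.94).

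Regions of the DICER1 interval named MIR3173 held 30 counts in MPS1i Input and 42 in DMSO Input, and 44 in MPS1i J2 and 64 in DMSO J2. The label also took in regions of the neighbouring gene CLMN, with 39 counts in MPS1i J2 and 42 in DMSO J2. The last of 4 equal segments of the gene, at the 3′ end, had 0 counts in MPS1i Input and 25 in DMSO Input, and 2 in MPS1i J2 and 16 in DMSO J2. From the 5′ end, the other segments had 52, 91 and 107 counts in MPS1i J2 and 86, 100 and 102 in DMSO J2, with log2 ratios of -0.17 (-0.70 to 0.34), 0.41 (-0.01 to 0.84) and 0.62 (0.21 to 1.02). The 3′ end was thus low in both MPS1i libraries, and of the other J2 segments only the third had an interval that excluded 0. Of 10 DICER1 regions with at least 10 reads in the J2 table, 9 had a ratio above 0 and 1 below. Of 10 such Input regions, 6 were above 0 and 4 below, although the summed Input ratio was below 0. Reads of both libraries were summed for this minimum, and the share over all regions was not computed. One of the J2 regions, 95121099-95121306, had 47 counts in MPS1i J2 and 23 in DMSO J2, a log2 ratio of 1.56 (0.83 to 2.37).

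TARBP2 (ENSG00000139546, chromosome 12, 53500921-53506431, plus strand), the shortest of the 7 genes at 5511 bases, was close to unread. By name label it had 9 counts in MPS1i Input and 4 in DMSO Input, and 5 in MPS1i J2 and 0 in DMSO J2. By interval it had 5 counts in MPS1i Input, 3 in DMSO Input and 0 in both J2 libraries, where the table lists no region for it on its strand. No ratio of TARBP2 is given, since its counts fall short of the minimum of 50.

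PRKRA (ENSG00000180228, chromosome 2, 178431414-178451512, minus strand), the partner of DICER1 that activates PKR, was low on its own strand. Both assignments gave 35 counts in MPS1i Input and 34 in DMSO Input, a log2 ratio of 0.44 (-0.28 to 1.16). Its J2 counts were 67 in MPS1i and 93 in DMSO, a log2 ratio of 0.08 (-0.40 to 0.54). J2 over Input gave a log2 ratio of 0.46 (-0.14 to 1.10) in MPS1i and 0.82 (0.25 to 1.45) in DMSO. None of these was called, and a 2-fold difference lies inside 3 of the 4 intervals.

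The opposite strand of PRKRA was read far more than PRKRA itself. Inside the PRKRA interval it had 5848 counts (873 CPM) in MPS1i J2 and 3391 counts (346 CPM) in DMSO J2. In Input it had 1311 counts (271 CPM) in MPS1i and 739 counts (116 CPM) in DMSO. The log2 ratios of MPS1i over DMSO were 1.33 (1.27 to 1.40) in J2 and 1.22 (1.09 to 1.36) in Input. Most of these reads belong to AC009948.1, now named CHROMR, an antisense long noncoding RNA gene at 178413939-178440243 whose end overlaps PRKRA. Over its own interval CHROMR was called higher in MPS1i in both fractions, with 5816 counts in MPS1i J2 and 3387 in DMSO J2, and 1302 in MPS1i Input and 730 in DMSO Input. The rule called 15.5% of genes measured by interval higher in J2 and 12.4% in Input.

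CHROMR was also called higher in J2 than in Input in both treatments. Its log2 ratio of J2 over Input was 1.69 (1.61 to 1.78) in MPS1i and 1.60 (1.48 to 1.71) in DMSO, where the rule called 19.0% and 21.0% of genes higher. The change between the treatments was 0.10 (-0.05 to 0.24). The reads piled up in a short stretch. The J2 region at 178435405-178436773 held 3929 counts in MPS1i J2 and 2235 in DMSO J2. The adjoining region at 178436798-178438681 held 1629 counts in MPS1i J2 and 1043 in DMSO J2, and the log2 ratios of the pair were 1.36 and 1.19. By HOMER's name these antisense regions stand under PRKRA, so a sum over both strands would give PRKRA the level of CHROMR. With both strands summed by label, PRKRA was called higher in MPS1i in Input and in J2, with log2 ratios of 1.20 and 1.31.

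**Figure D5:**
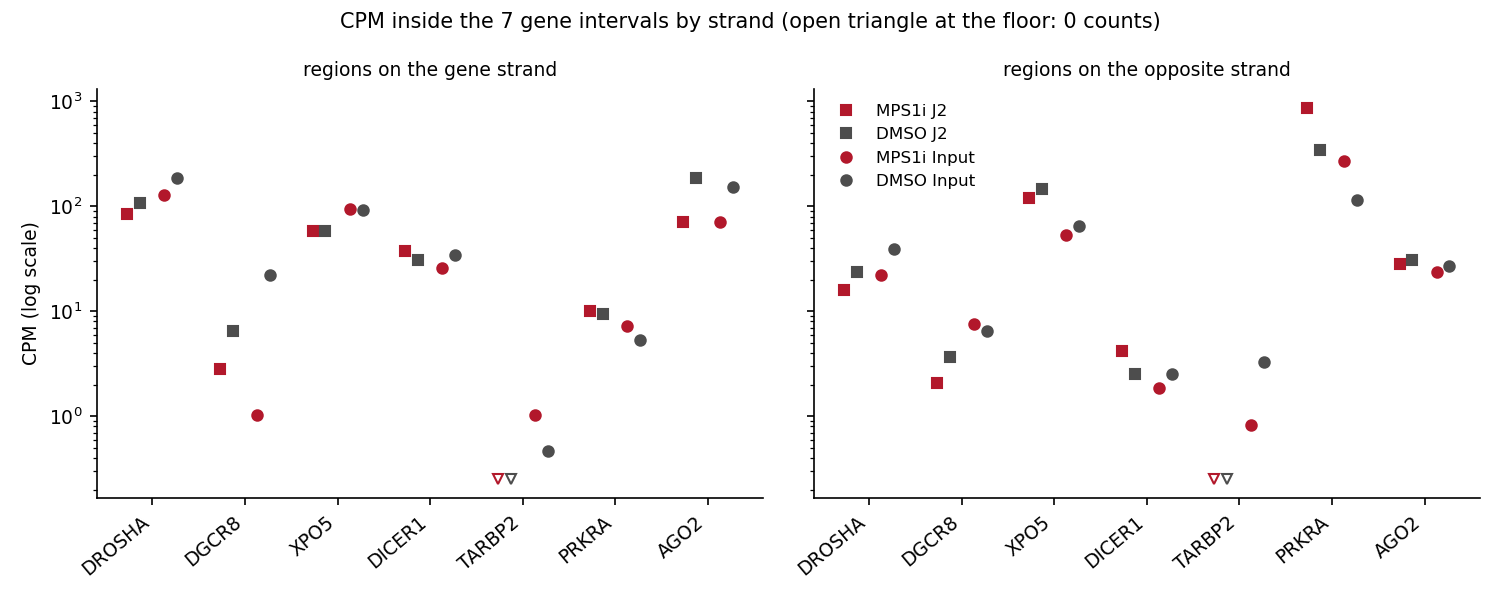
CPM (log scale) inside the 7 gene intervals on the gene's strand (left) and on the opposite strand (right), J2 as squares and Input as circles, MPS1i in red and DMSO in grey. PRKRA is the gene whose opposite strand exceeds its own in all 4 libraries by the widest gap, at 873 CPM in MPS1i J2 against 10.0 CPM on its own strand.

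AGO2 (ENSG00000123908, chromosome 8, 140520156-140635619, minus strand), the slicing Argonaute, was lower in MPS1i J2 than in DMSO J2 by both assignments, and in Input it was called by interval only. By name label it had 394 counts (58.8 CPM) in MPS1i J2 and 1447 counts (148 CPM) in DMSO J2, a log2 ratio of -1.33 (-1.49 to -1.17), or 2.51-fold lower. In Input it had 300 counts in MPS1i and 749 in DMSO, a log2 ratio of -0.92 (-1.12 to -0.73), which is 1.89-fold and short of a call. By interval it had 478 counts in MPS1i J2 and 1816 in DMSO J2, a log2 ratio of -1.38, and 345 in MPS1i Input and 977 in DMSO Input, a log2 ratio of -1.10 (-1.29 to -0.93). Both interval ratios were called lower, where the median of all genes measured by interval was -0.21 in J2 and -0.22 in Input. The reads that the label lost stood under CHRAC1, with 150 counts in MPS1i J2 and 574 in DMSO J2, and the label gained 65 counts in MPS1i J2 and 201 in DMSO J2 from the neighbouring gene PTK2.

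Every segment of AGO2 was below 0 in both fractions. By segment, J2 counts were 201, 124, 86 and 67 in MPS1i and 720, 492, 381 and 223 in DMSO, with log2 ratios between -1.59 and -1.18. Input counts by segment were 147, 115, 41 and 42 in MPS1i and 371, 242, 201 and 163 in DMSO, with log2 ratios between -1.88 and -0.67. In all 4 libraries the first segment held the most counts. Of 61 AGO2 regions with at least 10 reads in the J2 table, 56 had a ratio below 0, and of 44 such Input regions 32 did. Reads of both libraries were summed for this minimum, so a region read in DMSO alone could enter. Of the 44 Input regions, 14 had 0 reads in MPS1i and 0 had 0 reads in DMSO. The share of all regions below 0 was not computed, and regions of 1 gene are not replicates. In the J2 table regions with an Alu had 98 counts in MPS1i and 414 in DMSO, a log2 ratio of -1.53 (-1.86 to -1.21), and regions without a repeat had 279 in MPS1i and 1087 in DMSO, a log2 ratio of -1.41 (-1.61 to -1.22). In the Input table the log2 ratio was -0.74 (-1.17 to -0.33) in regions with an Alu and -1.31 (-1.54 to -1.10) in those without a repeat. The few Input regions with an L1 had 24 counts in each library, a log2 ratio of 0.40 (-0.48 to 1.28). The difference between repeat classes was not tested. With starts as listed, no AGO2 region shared a base with an exon.

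When each region of the AGO2 interval counted as 1, the log2 ratio was -0.75 (-1.09 to -0.43) in J2 and -0.58 (-0.99 to -0.20) in Input, below 0 but under 2-fold. The strand opposite to AGO2 had 190 counts in MPS1i J2 and 299 in DMSO J2, a log2 ratio of -0.10 (-0.38 to 0.16). Relative to Input, AGO2 by label had a log2 ratio in J2 of -0.07 (-0.29 to 0.15) in MPS1i and 0.33 (0.20 to 0.46) in DMSO. The change of enrichment was -0.41 (-0.66 to -0.16), without a call, and -0.27 by interval.

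Across the 7 genes, 0 were called in either direction by label in J2 over Input in DMSO, where the rule called 20.9% of measured genes higher and 10.1% lower. In MPS1i cells 0 were called higher, against 19.3% of measured genes, and XPO5 was the 1 called lower. By interval DGCR8 in DMSO, lower in J2, was the only call of the 7 in these J2 over Input comparisons. DROSHA had log2 ratios of J2 over Input of -0.60 in MPS1i and -0.80 in DMSO, neither called. Without its most-read region, not the same one in J2 and Input, they were 0.04 in MPS1i and -0.53 in DMSO. By interval without the exon-edge region they were 0.16 in MPS1i and -0.40 in DMSO. In matched regions, those overlapping by at least 90% both ways between J2 and Input, they were 0.82 (0.25 to 1.44) in MPS1i and -0.49 in DMSO. The negative value in MPS1i thus rests on the 1 exon-edge region of Input. DGCR8 by label, whose reads lie mostly in TANGO2, had ratios of 0.66 in MPS1i and 0.72 in DMSO.

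Other genes of microRNA biogenesis and silencing were taken from a list of 47, of which 36 were measured by label in Input. In MPS1i Input 11 were lower and 0 higher, where the rule called 18.5% of all measured genes lower and 10.6% higher, and the median log2 ratio was -0.73, against -0.26 over all measured genes. In J2, 38 were measured, 15 were lower and 1 higher, where the rule called 22.7% of all genes lower and 13.0% higher, with a median of -0.76 against -0.27 over all genes. By interval the counts were 8 lower and 0 higher of 35 in Input, and 11 lower and 1 higher of 38 in J2. SAFB, which aids Microprocessor cropping of clustered hairpins, had 21 counts in MPS1i Input and 199 in DMSO Input, a log2 ratio of -2.82. DDX17, a helicase of the Microprocessor, had 77 counts in MPS1i Input and 306 in DMSO Input, a log2 ratio of -1.59.

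Of this list, at most 6 called genes per direction and comparison are named. DIS3L2, the exonuclease that degrades uridylated precursors of let-7, had 58 counts in MPS1i Input and 291 in DMSO Input, and 76 in MPS1i J2 and 363 in DMSO J2. By interval DIS3L2 had 683 in MPS1i Input and 1497 in DMSO Input, and 895 in MPS1i J2 and 2482 in DMSO J2, with log2 ratios of -0.73 and -0.92 and no call. PARN, a poly(A) ribonuclease, had 211 counts in MPS1i J2 and 1098 in DMSO J2, a log2 ratio of -1.83. SND1, a nuclease found with the silencing complex, had 304 counts in MPS1i J2 and 1346 in DMSO J2, a log2 ratio of -1.60. TNRC6B, the GW182 protein that couples AGO proteins to deadenylation, had 325 counts in MPS1i J2 and 1284 in DMSO J2, a log2 ratio of -1.43. XPO1, a general nuclear exporter, had 421 counts in MPS1i J2 and 2047 in DMSO J2, a log2 ratio of -1.73. EDC4, a decapping scaffold, had 37 in MPS1i J2 and 206 in DMSO J2, and EIF4ENIF1, which links silencing to decapping, had 18 counts in MPS1i Input and 92 in DMSO Input. By interval EIF4ENIF1 had 61 in MPS1i Input and 119 in DMSO Input, a log2 ratio of -0.56 with no call. HNRNPA2B1, an RNA-binding protein that takes part in hairpin processing, was the 1 gene called higher, with 258 counts in MPS1i J2 and 95 in DMSO J2, a log2 ratio of 1.98 (1.64 to 2.34).

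Transcripts that carry microRNAs, the substrates of the Microprocessor, were taken from a list of 35. By label 20 were measured in Input, of which 6 were lower and 2 higher in MPS1i, where the rule called 18.5% of all genes lower and 10.6% higher, with a median log2 ratio of -0.81 against -0.26 over all genes. In J2, 19 were measured, 9 lower and 1 higher, against 22.7% and 13.0% of all genes, with a median of -0.74 against -0.27. By interval the counts were 7 lower and 2 higher of 25 in Input, and 9 lower and 0 higher of 24 in J2. WWP2, host of miR-140, had 221 counts in MPS1i J2 and 1258 in DMSO J2, and 63 in MPS1i Input and 431 in DMSO Input, with log2 ratios of -1.96 and -2.37. MIR193BHG had 5 counts in MPS1i Input and 71 in DMSO Input, and MIRLET7BHG, host of let-7 genes, had 12 in MPS1i Input and 67 in DMSO Input. Neither call holds by interval, where MIR193BHG had 49 in MPS1i Input and 46 in DMSO Input, a log2 ratio of 0.49, and MIRLET7BHG had 599 in MPS1i Input and 1344 in DMSO Input, a log2 ratio of -0.77. MIR100HG had 689 counts in MPS1i J2 and 2322 in DMSO J2, a log2 ratio of -1.20, and VMP1, which overlaps the miR-21 gene, had 151 in MPS1i J2 and 586 in DMSO J2. NFYC, RCL1 and MIR99AHG were also called lower in MPS1i Input, with log2 ratios of -1.44, -1.37 and -1.05, and COPZ1, NFYC and MIR99AHG in MPS1i J2, with log2 ratios of -1.60, -1.50 and -1.11. By interval WWP2, NFYC, COPZ1 and VMP1 kept the J2 call, while MIR100HG stood at -0.91 and MIR99AHG at -0.58 in J2, and RCL1 at -0.01 and MIR99AHG at -0.72 in Input, without a call.

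The hosts called higher were TRPM3, host of miR-204, and CTDSP1, host of miR-26b. TRPM3 had 87 counts in MPS1i Input and 26 in DMSO Input, and 123 in MPS1i J2 and 67 in DMSO J2, with log2 ratios of 2.12 and 1.42. By interval the ratio of TRPM3 was 1.03 in Input, still called higher, and 0.54 in J2, without a call. CTDSP1 had 48 counts in MPS1i Input and 18 in DMSO Input, a log2 ratio of 1.79 (1.00 to 2.68). These values are of the long transcripts, not of the mature microRNAs.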

How the data were processed

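The authors deposited raw read counts per stranded region in 2 tables, for Input (2310971 regions, median length 128 bases) and for J2 (3814162 regions, median length 120 bases), with HOMER annotation per the file headers. Per the submitters' processing notes, the build is GRCh38 and the tools include STAR, featureCounts, HOMER, Trim Galore, cutadapt and Trimmomatic, without versions. How regions were called and how multiply mapped or duplicate reads were treated is not given in the sources used here. Groups came from the sample titles. The members and lists were chosen with earlier results of these data known. Counts were summed per gene and scaled to each library's summed count, 4844956 to 9793355. Log2 ratios used a pseudocount of 0.5. The change of enrichment has a 95% delta-method interval and needed 50 counts over both J2 libraries and 20 over both Input libraries. Overlaps with GENCODE 29 used bedtools 2.31.1, and statistics scipy 1.17.1 and pandas 2.3.3. The code was tested on simulated data. Named genes were the 7 members and, of each list, the called genes, at most 6 per direction, ordered by the interval bound nearest to no difference. Other settings covered scaling, assignment, class, repeats, depth and count minimum (15 in all), and 2 were chosen after seeing the data: the gene interval without exon-edge regions, and with each region counted as 1. Region starts are as listed in the tables and may count from 0, although the listed lengths include the base at the listed start.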

Additional observations from a re-analysis of the deposited data

How the results depend on the processing

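With 1 library per group, depth limits every value: DGCR8 by interval rests on 5 counts in MPS1i Input, and TARBP2 stayed under the minimum. Of the member values under the 15 main settings, 390 stayed within the counting interval of the reported value, 76 moved out of it, and 7 changed sign with a call gained or lost. Under the 2 settings chosen after seeing the data the numbers were 29, 28 and 9, and of those 9 XPO5 in MPS1i J2 over Input went over to the opposite call. Among the 15, settings that changed only the count minimum could not move a ratio, so their values stayed by design. TARBP2, with too few counts and very wide intervals, is also in the tally. The 390 therefore overstate how stable the values are. Causes were not tested. No paired analysis was possible because each group held 1 library. Upper quartile scaling put the median of all genes at -0.03 in Input and 0.03 in J2, against -0.26 and -0.27 as reported.

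In MPS1i over DMSO Input, 0 members were called by label. By interval, with or without exon-edge regions, 2 were lower and DGCR8 stood at -4.31. Without the most-read region 1 was lower (26.7% of all genes), with both strands summed 1 was higher (11.7%), and in regions without a repeat 1 was higher (8.88%) and 1 lower (21.8%). In MPS1i over DMSO J2, 2 were lower by label, but 1 under upper quartile scaling, without the most-read region or in regions without a repeat (14.2%, 26.2% and 24.3% of all genes), and 0 with each region counted as 1, by label or interval (17.0% and 14.8%). With both strands summed or no minimum 1 was higher (15.4% and 18.3%). DGCR8 stood at -1.18 by interval and -1.61 without exon-edge regions, and XPO5 at 0.0077 by interval.

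In DMSO J2 over Input, 0 were called by label. The lower count was 2 without mitochondrial regions, under upper quartile scaling or in regions without a repeat, where the share of all genes was 16.3%, 14.3% and 12.6% against 10.1% as reported, and 1 by median-of-ratios scaling, in introns only, with no minimum and by interval with or without exon-edge regions (8.86% to 12.2%). The higher count was 1 with both strands summed, in regions without a repeat and by interval without exon-edge regions (16.6%, 14.8% and 18.5%). DGCR8 stood at -1.77 by interval with or without exon-edge regions, and XPO5 at 1.22 without them. If region starts count from 0, the XPO5 and DGCR8 regions left out there adjoin exons without a shared base. With each region counted as 1, few genes were called in J2 over Input or in its change (0.905% to 3.1%), so 0 members called there says little. In MPS1i J2 over Input, the lower count was 0 by interval under each of its 3 settings, with each region counted as 1, without the most-read region and in matched regions. The higher count was 1 with both strands summed, in regions without a repeat and by interval without exon-edge regions (16.2%, 16.8% and 14.9%). Without its most-read region, not the same one in J2 and Input, XPO5 stood at 0.17. It stood at 1.66 by interval without exon-edge regions and 0.016 by interval with each region counted as 1.

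For the change of J2 enrichment, the lower count was 0 by interval under each of its 3 settings, with each region counted as 1 and without the most-read region, and 2 in matched regions (11.5% of all genes), where DICER1 stood at -1.56. The higher count was 1 in matched regions and by interval with or without exon-edge regions (12.3%, 8.94% and 8.81%). DGCR8 stood at 3.13 by interval and 2.70 without exon-edge regions. XPO5 stood at 0.44 by interval without exon-edge regions and 0.35 with each region counted as 1. Of the pathway list, upper quartile scaling left 6 of 36 lower in Input and 3 of 38 higher in J2 (12.5% and 18.2% of all genes). Each region counted as 1 left 6 of 23 lower in Input (21.3%), and 5 of 28 lower and 0 higher in J2 (17.0% and 4.01%). Of the host list, upper quartile scaling left 2 of 19 higher in J2 (18.2% of all genes). Each region counted as 1 left 0 of 11 higher in Input (1.42%) and 3 of 14 lower in J2 (17.0%).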
